A study of Mus musculus with 8 samples.

Results

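The proteasome subunit genes were taken as all genes whose symbol in the array annotation is Psma, Psmb, Psmc or Psmd followed by a number. This rule found 39 genes, with 72 probes, among the 26894 genes with a symbol on the array. All 39 had a probe that passed the filter on dim signals, and 38 were well above background on all 8 arrays. The tissue was the hippocampal dentate gyrus, taken at 8 to 9 weeks of age from male mice of the C57BL/6 strain, and its total RNA was hybridised to Agilent one-colour arrays. There were 4 groups of 2 arrays: Derlin-1 control (Derl1 flox/flox, without Cre), Derlin-1 KO (Derl1 flox/flox with Cre recombinase under the nestin promoter), Derlin-2 control (Derl2 flox/flox) and Derlin-2 KO (Derl2 flox/flox with the same kind of Cre transgene). All groups therefore carry floxed alleles, and the controls lack the Cre transgene. The nestin promoter is active in neural progenitors, so neurons and glia descending from them lose the gene, while cells of other origin such as microglia and endothelium keep it. Array values came from whole dissected tissue, in which fewer cells of a type and less RNA per cell cannot be told apart. The labels do not say whether each array holds 1 animal.

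The proteasome degrades proteins tagged with ubiquitin, including those that the Derlins and their partners pass out of the endoplasmic reticulum. Its barrel-shaped core has outer rings of alpha subunits (Psma genes) and inner rings of beta subunits (Psmb genes). Psmb6, Psmb7 and Psmb5 carry the caspase-like, trypsin-like and chymotrypsin-like sites, and under interferon they are replaced by Psmb9, Psmb10 and Psmb8 to form the immunoproteasome, which favours peptides for MHC class I. A regulatory cap opens the core and unfolds substrates. It is made of an ATPase ring (Psmc genes) and of other subunits (most Psmd genes), some of which bind or remove ubiquitin. When proteasome activity falls short, the transcription factor NRF1 (gene Nfe2l1), itself a membrane protein of the endoplasmic reticulum, is known to raise most core and cap genes together. The 39 genes fell into 14 core genes, 3 immunoproteasome genes, 20 cap genes (6 ATPases, 11 other subunits and 3 assembly chaperones) and 2 core genes restricted to other tissues.

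On the 8 arrays 67.57% to 70.82% of probes were well above background and no spot was saturated. The 75th percentile of signal before normalization ran from 956 (Derlin-2 KO 1) to 1437 (Derlin-1 control 1), the latter above the 1121 to 1163 of the other arrays of its line. The 4 arrays of a line shared 1 slide, so slide and line cannot be told apart, while each KO-control comparison lies within a slide. All 6 granule neuron markers on the list used here had a probe well above background on all 8 arrays. The targeted genes were read first. Derl2 (brightest probe) gave 11.35 and 11.22 in the Derlin-2 controls and 10.63 and 10.66 in the Derlin-2 KO mice on the log2 signal scale, a difference of -0.64, with adjusted p = 0.259 in limma, and its second probe differed by -1.04. Derl1 gave 10.85 and 10.76 in the Derlin-1 controls and 10.57 and 10.66 in the Derlin-1 KO mice, a difference of -0.19, and its second probe differed by 0.46 in the other direction. The position of these probes relative to the deleted exons was not known here, so Derl1 signal does not settle the labels of the Derlin-1 groups.

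No proteasome gene passed the threshold in either line. Differences are KO minus control in log2 normalized signal, tested by limma with p-values adjusted over all probes kept, and a call means an adjusted p under 0.05. In the Derlin-1 line 0 of 39 were called, where 0% of all probes were, and for Derlin-2 0 of 39, where 0.0452% of probes were. At an unadjusted p under 0.05 the member count by brightest probe stayed at 0 in both lines, against 4.72% and 5.55% of all probes. Read in the same way, 845 of 19909 genes were under that limit in the Derlin-1 line and 943 of 19814 for Derlin-2. Further probes of the members, such as the dim Psmc2 probe described below, were left out of this count. A difference of 1.5-fold or more was seen for 0 members in the Derlin-1 line and 0 for Derlin-2, against 4.14% and 4.59% of all genes. The members are few, and their median standard error was 0.103 in each line, against 0.146 and 0.145 over all genes. These shares are therefore not on a like footing. The smallest adjusted p among the members was 0.9997 in the Derlin-1 line and 0.970 for Derlin-2.

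For the brightest probe of each core and cap gene, the spread between these arrays gave narrow intervals. That spread may be technical, so the intervals describe these samples only. For these 34 genes the standard error of the difference ran from 0.089 to 0.147, and the half-width of the 95% limma interval from 0.216 to 0.358 with a median of 0.246. All 34 intervals included 0 in each line. For Derlin-2, all 34 lay inside a 1.5-fold change in either direction (0.58 on the log2 scale), and in the Derlin-1 line 33 did, the exception being Psmb2. Leaving out Psmb2, the largest difference was 0.175, or 1.13-fold, in the Derlin-1 line and 0.139 for Derlin-2. In each line 22 of the 34 genes differed between genotypes by less than the gap between the 2 control arrays.

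**Figure D1:**
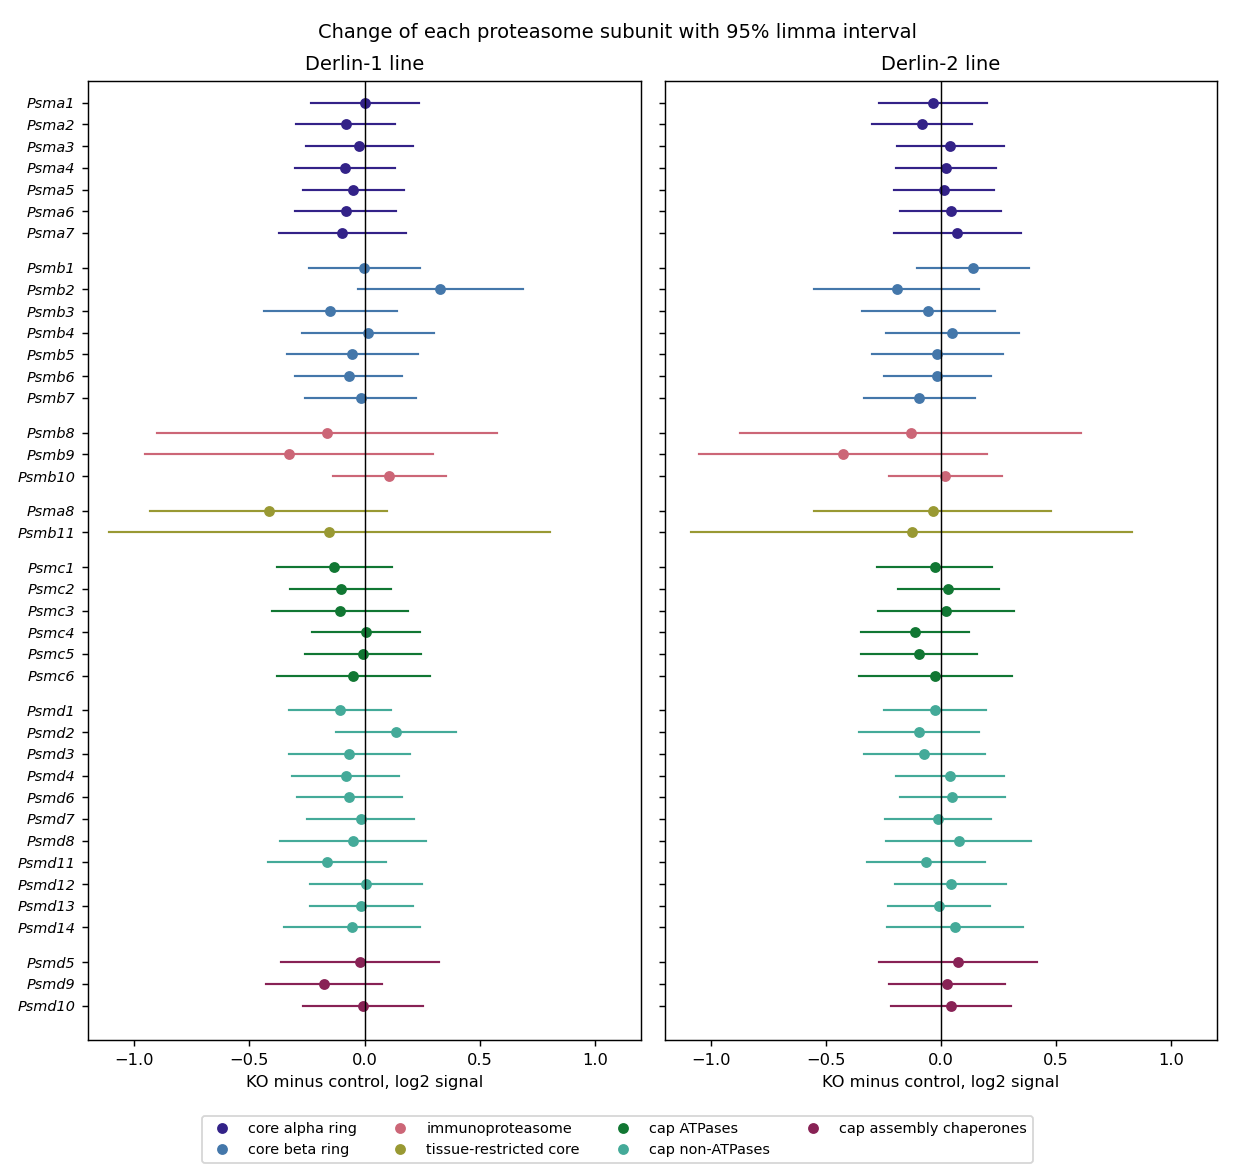
KO minus control difference in log2 signal of each of the 39 proteasome genes (points) with its 95% limma interval (bars), for the Derlin-1 line (left) and the Derlin-2 line (right), coloured by class. Nearly all core and cap points lie within 0.2 of 0 and every interval includes 0; the widest intervals belong to Psmb8, Psmb9, Psma8 and Psmb11.

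The direction of these small differences was uneven in the Derlin-1 line. There, 32 of 39 members were lower in the KO mice and 7 higher, with a median difference of -0.054, beside a median of -0.014 and 53.9% lower over all genes. Both KO arrays lay below both controls for 13 members (33.3%) and above them for 3 (7.69%), where 16.9% of all genes lay below and 17.2% above. The core (11 of 14 lower, median -0.051) and the cap (17 of 20 lower, median -0.052) gave like values. With 2 arrays against 2, the smallest exact two-sided p for a single gene is 0.333, and the genes share their arrays, so these counts are descriptions. Derlin-1 control 1 weighed on them: without it the cap median was -0.0017 and 22 of the 34 core and cap genes (64.7%) were lower, and without Derlin-1 control 2 the cap median was -0.11. The values over all genes moved too. Without Derlin-1 control 1 their median was 0.013 and 46.6% were lower, and without Derlin-1 control 2 it was -0.022, with 54.2% lower. Neuronal markers went both ways in the same comparison. Of 6 granule neuron markers, 3 were lower and 3 higher (median -0.14). The lower ones were C1ql2 (-0.53), Dsp (-0.32) and Stxbp6 (-0.29), the higher ones Calb1 (0.12), Prox1 (0.087) and Tdo2 (0.0016). C1ql2 gave 10.69 and 10.06 in the controls and 9.93 and 9.76 in the KO mice. Of 7 CA pyramidal neuron markers, 5 were higher and 2 lower (median 0.27). The summed linear signal of the granule neuron list was 34969 to 44164 in the controls and 34180 to 41488 in the KO mice. None of these markers was called, and their part in the slant was not tested.

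The Derlin-2 line showed no such slant. There 21 members were lower and 18 higher, with a median of -0.014 beside 0.015 over all genes. Both KO arrays lay below both controls for 5 members (12.8%, all genes 13.6%) and above for 4 (10.3%, all genes 19.2%). The core median was -0.0014 and the cap median 0.0058, with 17 of 34 genes on each side. That split depended on the scaling: when arrays were scaled to their 75th percentile, 9 were lower and 25 higher, and in the authors' normalized values 8 were lower and 26 higher, while in the Derlin-1 line 30 were lower under both. Over all genes, 44.3% and 44.1% were lower for Derlin-2 under these scalings and 46.4% and 49.6% in the Derlin-1 line.

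**Figure D2:**
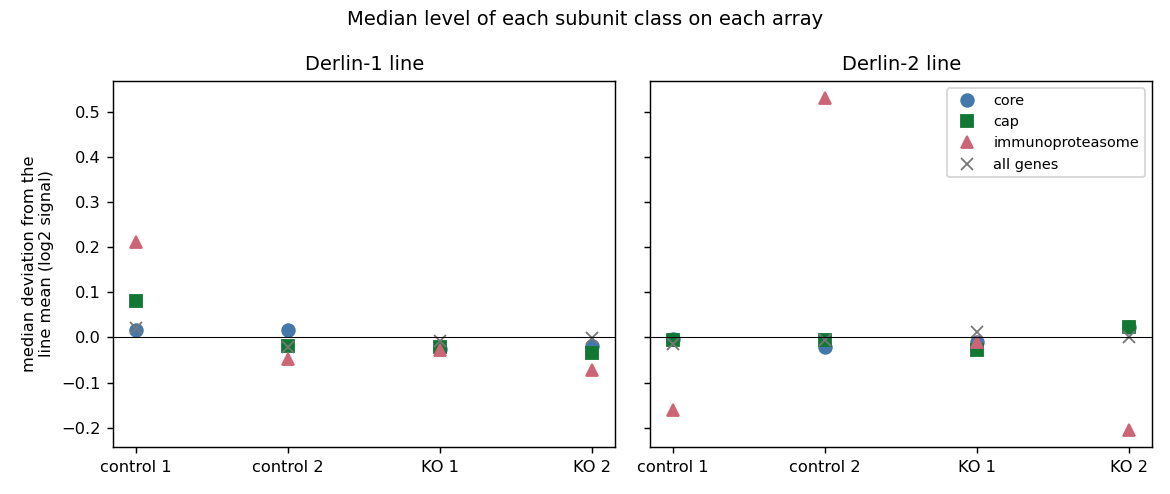
Median over the core, cap and immunoproteasome genes, and over all genes, of the deviation from the mean of the line's 4 arrays (vertical axis, log2 signal), for each array of each line. Core and cap stay within 0.1 of 0 on every array, with the cap highest on Derlin-1 control 1 (0.082), while the immunoproteasome reaches 0.53 on Derlin-2 control 2.

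The alpha ring forms the outer gate of the core. Its 7 genes differed by -0.097 to 0.0039 in the Derlin-1 line, where 6 were lower, and by -0.084 to 0.070 for Derlin-2, where 2 were lower. Psma2, singled out after its values were seen, gave 15.07 and 15.09 in the Derlin-1 controls, 14.97 and 15.02 in the Derlin-1 KO mice, 14.96 and 14.97 in the Derlin-2 controls and 14.89 and 14.86 in the Derlin-2 KO mice. Both KO arrays were thus below both controls in each line, with differences of -0.083 and -0.084 and a standard error of 0.089 each. Only Psma2 and Psmd11 did so among the members, against 506 of 19667 genes. Psma6, also chosen after its values were seen, gave 14.18 and 14.12 in the controls against 14.08 and 14.06 in the KO mice of the Derlin-1 line, and 14.09 and 14.06 against 14.12 and 14.12 for Derlin-2. The KO arrays were below the controls in the first and above them in the second, with differences of -0.082 and 0.042, both under the standard error of 0.090. Psma7 gave 14.43 and 14.26 in the Derlin-1 controls against 14.28 and 14.21 in the KO mice, and 14.49 and 14.36 against 14.43 and 14.55 for Derlin-2. The groups overlapped in each line, and the difference between the lines was -0.17 (standard error 0.16).

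The constitutive catalytic subunits differed between genotypes by no more than their arrays varied. Values are given for the 2 controls against the 2 KO arrays of a line. Psmb6 gave 15.09 and 14.99 in the Derlin-1 controls, 14.98 and 14.97 in the Derlin-1 KO mice, 15.06 and 14.98 in the Derlin-2 controls and 14.99 and 15.03 in the Derlin-2 KO mice. The difference was -0.069 in the Derlin-1 line, where the KO arrays were lower by a narrow margin, and -0.017 for Derlin-2, where the groups overlapped. Psmb7 gave 12.92 and 12.94 against 12.89 and 12.93 in the Derlin-1 line, and 12.99 and 13.11 against 13.01 and 12.91 for Derlin-2. Its differences of -0.017 and -0.094 came from overlapping groups. Psmb5 gave 13.36 and 13.50 against 13.33 and 13.42 in the Derlin-1 line, and 13.45 and 13.65 against 13.50 and 13.57 for Derlin-2. These groups overlapped too, with differences of -0.053 and -0.017. With arrays scaled to their 75th percentile, the Derlin-2 differences of Psmb5 and Psmb6 turned to 0.015 and 0.045. For these 3 genes the standard errors were 0.095 (Psmb6), 0.098 (Psmb7) and 0.117 (Psmb5).

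Of the structural beta subunits, which complete the inner rings without a catalytic site, Psmb2 stood out. Its brightest probe gave 11.75 and 11.85 in the Derlin-1 controls and 12.21 and 12.05 in the Derlin-1 KO mice, both higher, a difference of 0.33 (1.26-fold, standard error 0.15). For the Derlin-2 arrays, it gave 11.85 and 11.49 in the controls and 11.49 and 11.46 in the KO mice, both barely below the lower control, a difference of -0.19 that was -0.011 without Derlin-2 control 1. The difference between the lines was 0.52 (standard error 0.21). By brightest probe, Psmb2 was the only member with an unadjusted p under 0.05 in that comparison, against 5.90% of all probes. Read in the same way, 904 of 19812 genes were under that limit. After adjustment p was 0.844 in limma, with 0.00754% of probes called and no member. The other 2 probes of Psmb2 showed neither difference: they gave -0.030 and -0.032 in the Derlin-1 line and 0.068 and -0.074 for Derlin-2. Psmb1 had the largest positive difference of the Derlin-2 line, from 12.54 and 12.56 in the controls to 12.61 and 12.76 in the KO mice, or 0.139 (standard error 0.099). It was 0.064 without Derlin-2 KO 2 and 0.21 without Derlin-2 KO 1. In the Derlin-1 line the same gene gave 12.71 and 12.66 against 12.70 and 12.66. Psmb3 differed by -0.15 and -0.055 in the 2 lines, and Psmb4 by 0.015 and 0.048.

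The immunoproteasome genes differed in how far their signal varied. Psmb10 varied little between arrays of a group, whereas Psmb8 and Psmb9 varied widely between the Derlin-2 controls. Psmb10 was also far brighter, with a mean log2 signal of 13.80 against 7.67 (Psmb8) and 7.94 (Psmb9). The part of signal level in this spread was not tested. Psmb9, the replacement for Psmb6, gave 8.15 and 7.88 in the Derlin-1 controls and 7.60 and 7.78 in the Derlin-1 KO mice, a difference of -0.33 (1.26-fold lower, standard error 0.26). It gave 7.86 and 8.61 in the Derlin-2 controls and 7.91 and 7.71 in the Derlin-2 KO mice, a difference of -0.43 (1.34-fold lower). The KO arrays were below both controls in the Derlin-1 line and overlapped them for Derlin-2, where 1 control array was far above the rest. Psmb8, the replacement for Psmb5, gave 8.00 and 7.74 against 7.76 and 7.65 in the Derlin-1 line, and 7.16 and 8.09 against 7.63 and 7.36 for Derlin-2. Its differences were -0.16 and -0.13 with a standard error of 0.30, and the groups overlapped in both lines. Among the Derlin-2 arrays, the 2 control arrays differed more from each other than from either KO array. Psmb10, the replacement for Psmb7, gave 13.56 and 13.51 against 13.61 and 13.67 in the Derlin-1 line, and 14.08 and 13.93 against 14.01 and 14.04 for Derlin-2. Both Derlin-1 KO arrays were above their controls, by 0.107 (standard error 0.10), and the difference for Derlin-2 was 0.019.

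**Figure D3:**
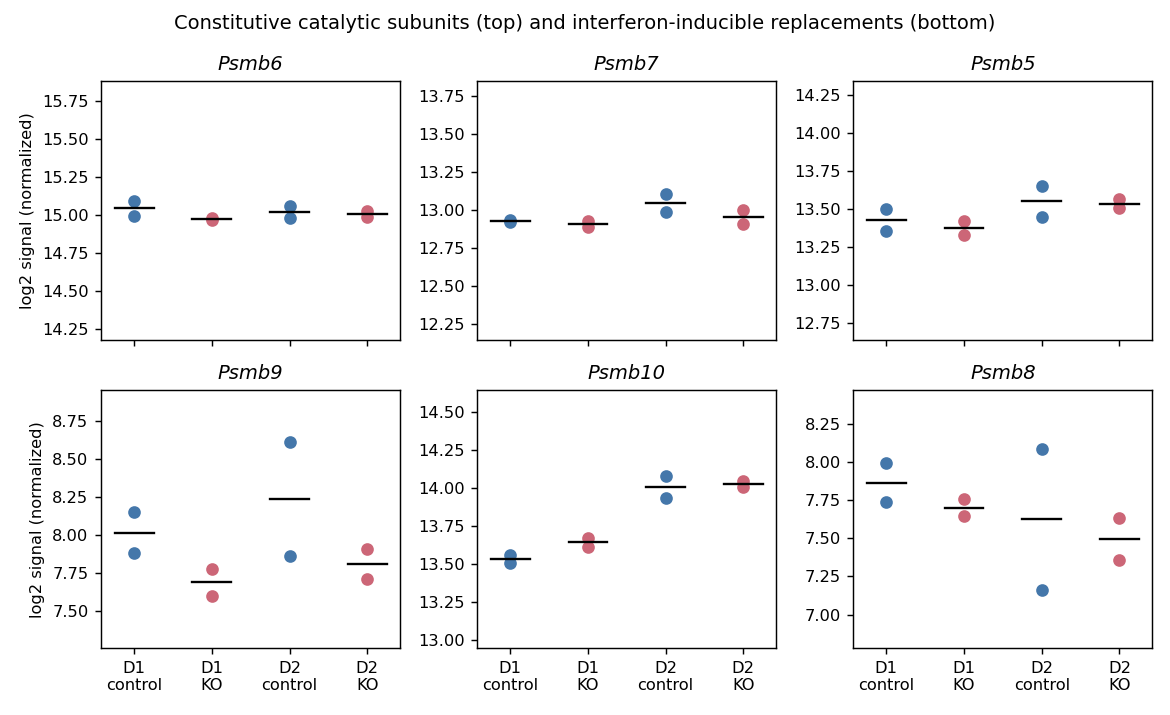
Normalized log2 signal of the constitutive catalytic genes Psmb6, Psmb7 and Psmb5 (top) and of their immunoproteasome replacements Psmb9, Psmb10 and Psmb8 (bottom) on every array (points, controls blue and KO red) with the mean of each group of 2 (bars); D1 and D2 are the Derlin-1 and Derlin-2 lines, and all panels span the same range of log2 units. The 2 Derlin-2 control points of Psmb8 (7.16 and 8.09) and Psmb9 (7.86 and 8.61) lie far apart, while the points of the constitutive genes lie close together.

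Psmb8 and Psmb9 were high on the same arrays as other interferon-responsive genes. A list of 14 interferon and MHC class I genes was high on 1 control array of each line: its median deviation from the line mean was 0.41 on Derlin-1 control 1 and 0.29 on Derlin-2 control 2, and between -0.21 and -0.070 on the 6 others. On the same 2 arrays Psmb9 deviated by 0.30 and 0.59 and Psmb8 by 0.21 and 0.53, while Psmb10 deviated by -0.028 and -0.084. Of the list, 13 of 14 genes were lower in the KO mice of each line (medians -0.26 and -0.23) and none was called. The lowest were Irf7, an interferon regulatory factor, at -0.41 in the Derlin-1 line and Ifit1, an antiviral effector, at -0.53 for Derlin-2. The summed linear signal of the list was 21486 to 31258 in the Derlin-1 controls and 21933 to 22370 in the KO mice, and 20608 to 28343 against 19042 to 21489 for Derlin-2. Without Derlin-1 control 1 the Derlin-1 difference was -0.19 for Psmb9 and -0.035 for Psmb8 (-0.47 and -0.29 without Derlin-1 control 2), and without Derlin-2 control 2 it was -0.053 for Psmb9 and 0.33, of the opposite sign, for Psmb8.

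Markers of the cells that could carry these genes were read on the same arrays. Of 10 microglial markers, 9 were lower in the Derlin-1 KO mice (median -0.11). The tenth, Cd68, had the widest difference and was higher, by 1.13 (standard error 0.29), from 10.40 on the 1 control array with a value to 11.25 and 11.80 in the KO mice. For Derlin-2, 3 of the 9 with values were lower (median 0.087). Of 8 endothelial markers, 3 were lower in each line. The 6 blood markers were lower in all KO groups, with medians of -0.49 and -0.16 and summed linear signals of 54382 to 118728 in the Derlin-1 controls against 56104 to 61810 in the KO mice. No gene of these lists was called. All that were measured were well above background on all 8 arrays, although Cd68 had no value where its spots were marked as outliers. The part of these lists in the Psmb8 and Psmb9 values was not tested.

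**Figure D4:**
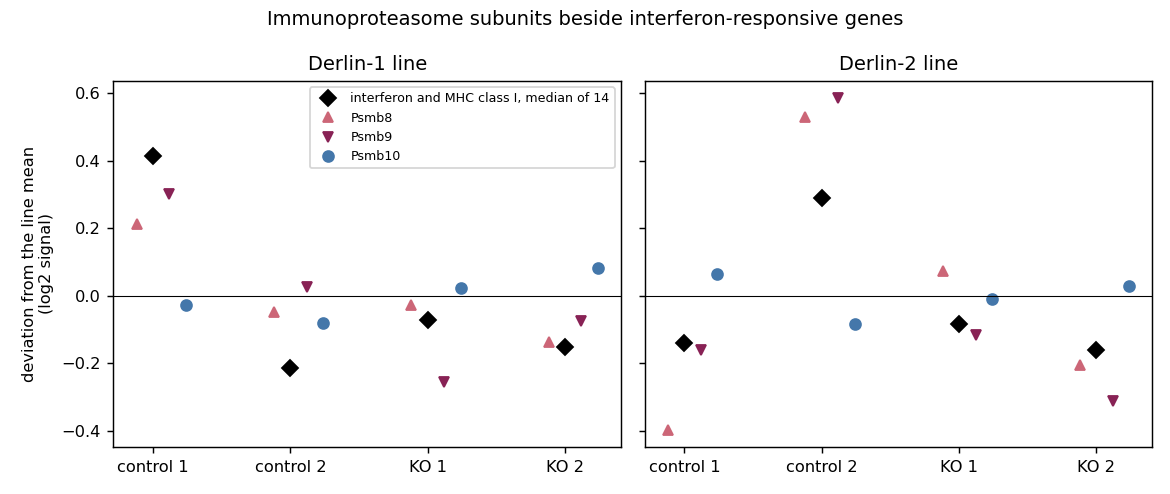
Deviation of log2 signal from the mean of the line's 4 arrays (vertical axis) for Psmb8, Psmb9 and Psmb10 and for the median of 14 interferon and MHC class I genes, on each array of each line. The list, Psmb8 and Psmb9 are all highest on Derlin-1 control 1 and on Derlin-2 control 2; Psmb10 is not.

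Sequences before the transcription start are printed here for the 3 immunoproteasome genes and for Psmb5, because these genes differ in how far their signal varied between arrays. These genes also differ in brightness. RefSeq (GRCm38.p6) gave a promoter window for 32 of the 39 members, and the first 250 bases of each window, up to the start, are shown 5′ to 3′ on the gene's strand, with motif matches in capitals.
Psmb8: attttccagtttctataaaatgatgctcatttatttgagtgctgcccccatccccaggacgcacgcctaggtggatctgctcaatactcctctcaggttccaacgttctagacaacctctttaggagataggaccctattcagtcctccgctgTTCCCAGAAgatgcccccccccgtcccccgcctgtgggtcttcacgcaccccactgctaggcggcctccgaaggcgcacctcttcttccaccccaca
Psmb9: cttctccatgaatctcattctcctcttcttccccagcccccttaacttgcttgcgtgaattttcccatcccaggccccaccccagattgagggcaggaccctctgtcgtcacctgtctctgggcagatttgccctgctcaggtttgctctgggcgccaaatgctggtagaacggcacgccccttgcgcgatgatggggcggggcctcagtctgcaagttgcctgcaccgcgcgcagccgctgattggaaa
Psmb10: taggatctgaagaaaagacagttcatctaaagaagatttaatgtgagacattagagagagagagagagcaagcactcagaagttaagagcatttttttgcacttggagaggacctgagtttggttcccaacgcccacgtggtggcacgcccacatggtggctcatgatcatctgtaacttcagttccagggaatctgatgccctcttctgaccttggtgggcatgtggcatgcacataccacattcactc
Psmb5: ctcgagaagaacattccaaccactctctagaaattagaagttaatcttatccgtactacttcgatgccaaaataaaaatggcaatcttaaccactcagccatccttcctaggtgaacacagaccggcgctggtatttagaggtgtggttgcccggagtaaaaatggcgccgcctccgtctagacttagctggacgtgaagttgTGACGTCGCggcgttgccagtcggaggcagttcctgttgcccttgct
They lie at chr17:34197945-34198194 (plus strand), chr17:34187331-34187580 (minus strand), chr8:105938393-105938642 (minus strand) and chr14:54617996-54618245 (minus strand) in that order. Psmb9 and Tap1, a peptide transporter gene of the interferon list, start 226 bases apart on opposite strands, so the Psmb9 window also lies in front of Tap1. Tap1 gave differences of -0.063 in the Derlin-1 line and -0.14 for Derlin-2, with a standard error of 0.22.

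Each 300-base window was searched on both strands for 3 short motifs. The gamma-activated site TTCNNNGAA, bound by STAT factors, was found in Psmb8, 97 bases before the start, and in Psmd2, so in 2 of 32 members (6.25%) against 9.55% of all genes with a window. A core of the interferon-stimulated element, GAAANNGAA, was found in 5 members (15.6%, all genes 9.76%), none of them an immunoproteasome gene. The antioxidant-type element bound by NRF1, TGACNNNGC, was found in Psmb5, 47 bases before the start, and in Psmb6, Psmc6, Psmd9 and Psmd12, again 5 members (15.6%, all genes 13.99%). Matches of different motifs did not overlap in any member. A match says only that these letters stand in the window.

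The ATPases of the cap, which unfold substrates, differed by -0.13 (Psmc1) to 0.0061 (Psmc4) in the Derlin-1 line, where 5 of 6 were lower. Psmc4 gave 12.63 and 12.57 against 12.61 and 12.60 in the Derlin-1 line, and 12.56 and 12.68 against 12.51 and 12.51 for Derlin-2. The groups overlapped in the first, both KO arrays were lower in the second, with a difference of -0.11, and the difference between the lines was 0.12 (standard error 0.14). On the Derlin-2 slide, 4 of the 6 ATPases were lower.

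Among the other cap subunits, 9 of 11 were lower in the Derlin-1 line and 6 of 11 for Derlin-2. Psmd14, the deubiquitinase that removes the ubiquitin chain, differed by -0.054 and 0.059. Psmd4, a ubiquitin receptor, differed by -0.083 and 0.039. Psmd2, a large scaffold subunit, had the largest positive difference of the cap in the Derlin-1 line. It gave 13.24 and 13.37 in the controls and 13.42 and 13.47 in the KO mice, both higher, by 0.138 (standard error 0.11), or by 0.072 without Derlin-1 control 1. For Derlin-2, Psmd2 gave 13.04 and 13.19 against 13.06 and 12.98, a difference of -0.097, and the difference between the lines was 0.23 (standard error 0.15). Its second, dimmer probe gave -0.28 and 0.11, of the opposite sign in each line. Psmd11, a subunit of the cap's lid, gave 10.92 and 10.73 against 10.66 and 10.67 in the Derlin-1 line, and 10.78 and 10.75 against 10.66 and 10.74 for Derlin-2. Both KO arrays were below both controls in each line, with differences of -0.16 and -0.066 and a standard error of 0.105. Psmd8, another lid subunit, gave 11.89 and 11.61 against 11.78 and 11.87 for Derlin-2, overlapping groups with a difference of 0.076.

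The 3 assembly chaperones help to build the ATPase ring and are not part of the finished cap. Psmd9 had the lowest cap value of the Derlin-1 line: 9.21 and 9.06 in the controls against 8.92 and 9.00 in the KO mice, both lower, a difference of -0.175 (standard error 0.10), or -0.10 without Derlin-1 control 1. On the Derlin-2 slide, it gave 8.77 and 8.86 against 8.81 and 8.87, and the difference between the lines was -0.20 (standard error 0.15). Psmd5 gave 10.87 and 10.57 against 10.693 and 10.705 in the Derlin-1 line, and 10.27 and 10.29 against 10.23 and 10.47 for Derlin-2. The groups overlapped in both, with differences of -0.020 and 0.074. Psmd10 differed by -0.0075 and 0.043.

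The 2 tissue-restricted core genes were dim. Psma8, which replaces an alpha subunit in the testis, gave 5.66 and 5.48 in the Derlin-1 controls and 5.22 and 5.09 in the KO mice, both lower, the lowest difference of all members at -0.42 (standard error 0.21). For Derlin-2, it gave 5.42 and 6.03 against 5.78 and 5.60, overlapping, and the difference between the lines was -0.38 (standard error 0.30), or -0.076 without Derlin-2 control 1 and -0.68 without Derlin-2 control 2. Psmb11, the beta subunit of the thymic cortex, was not well above background in the Derlin-1 line. Among the Derlin-2 arrays, it gave 4.36 and 4.84 against 4.29 and 4.66, a difference of -0.13.

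Set side by side, the lines gave the same sign for 20 of 39 members: 17 were lower in both, 3 higher in both, and 19 had opposite signs. The Derlin-1 difference was below the Derlin-2 difference for 29 of 39 members, with a median gap of -0.052, where over all genes the share was 56.1% and the median gap -0.031. None of these gaps was called in limma.

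Probes of the same gene gave a further check. Of the members, 19 had several probes kept, with 29 probes beside the brightest. Of these, the 17 with a mean log2 signal of 11 or more were all within 0.2 of their gene's brightest probe in both lines. Of the 12 dimmer ones, 3 were within 0.2 in the Derlin-1 line and 5 for Derlin-2. That limit is wide here, since nearly all core and cap differences were themselves within 0.2 of 0. Of the 29 further probes, 18 had the sign of the brightest probe and 11 the opposite sign in each line. The widest gap was at Psmc2, whose brightest probe gave a Derlin-2 difference of 0.032 and whose dim probe gave -0.89. The dim probe had no value on 1 Derlin-2 control array, where its spot was marked as an outlier, so its value rests on 8.22 in the remaining control against 7.14 and 7.53 in the KO mice. The adjusted p of the dim probe was 0.593 in limma.

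**Figure D5:**
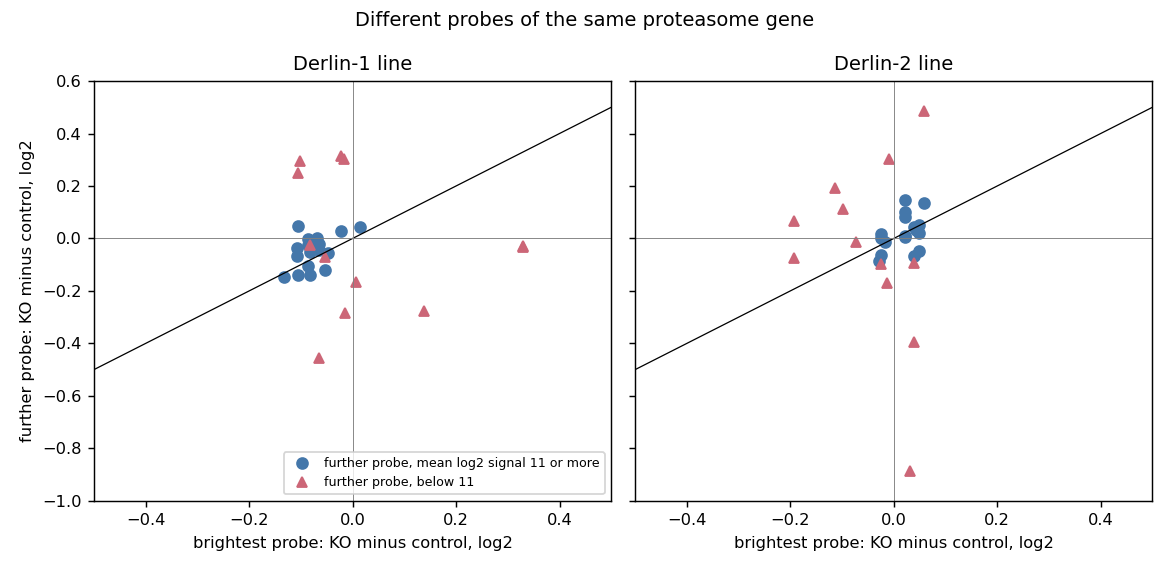
KO minus control difference (log2) of each further probe of a proteasome gene (vertical axis) against that of the gene's brightest probe (horizontal axis), for the Derlin-1 line (left) and the Derlin-2 line (right); blue circles are probes with a mean log2 signal of 11 or more, red triangles dimmer ones, and the diagonal marks equal values. The bright probes gather near the diagonal and the dim ones scatter, down to -0.89 for Psmc2 for Derlin-2.

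Genes that act with the proteasome gave values of the same size, and none was called in either line. Of the activators and the inhibitor, 4 of 5 could be matched. Psme3, the nuclear activator, was at 0.16 in the Derlin-1 line and 0.042 for Derlin-2. Psmf1, the inhibitor, was the lowest in the Derlin-1 line at -0.044, and Psme1, the interferon-inducible activator, the lowest for Derlin-2 at -0.081. Of the 5 chaperones of the core, 4 were lower in the Derlin-1 line, down to -0.11 for Psmg4. On the Derlin-2 slide, 1 was, and Psmg3 was highest in each line at 0.059 and 0.090.

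The NRF1 pathway was measured by 4 genes, of which 3 were lower in each line (medians -0.036 and -0.044). Nfe2l1 itself was at 0.082 in the Derlin-1 line (standard error 0.092), and Nfe2l2, the related oxidative stress factor, at -0.17. Ddi2, the protease that releases NRF1, was lowest for Derlin-2 at -0.20 and Ngly1, which removes its sugars, highest at 0.067. Among 7 factors that bind the cap, AI314180 (now Ecpas), which tethers core and cap, spanned the widest range, with 0.37 in the Derlin-1 line and -0.20 for Derlin-2 at a standard error of 0.19. Ube3c, a cap-bound ubiquitin ligase, was lowest in the Derlin-1 line at -0.085, and Usp14, a cap-bound deubiquitinase, highest for Derlin-2 at 0.099. Of the 10 ubiquitin and shuttle genes, 8 were lower in the Derlin-1 line and 3 for Derlin-2. Rps27a, a ubiquitin precursor, was highest in both at 0.15 and 0.14, with the shuttle factor Ubqln2 lowest in the Derlin-1 line at -0.12 and the ubiquitin-activating enzyme Uba1 lowest for Derlin-2 at -0.11.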

How the data were processed

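RNA of 8 dentate gyrus samples was measured on Agilent one-colour mouse arrays (56605 probes). The deposited scanner files hold processed intensity values, which per the file headers and labels come from Agilent Feature Extraction 10.7.1.1 (background-subtracted, not normalized between arrays). The authors' 2 tables hold normalized log2 values for each line, made in GeneSpring by quantile normalization with centring on the median of samples, and their own fold changes, which were not used. Their scale differs from the intensities and they served as an alternative.

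Here quantile normalization over the 8 arrays followed the log2 transform of processed signals (floor 1), and spots of a probe were averaged without outlier spots. Probes well above background on both arrays of at least 1 group were kept (40001). Group means were fitted with limma 3.58.1 (R 4.3.3; residual df 4, prior df 2.066), two-sided, with Benjamini-Hochberg adjustment at 0.05. The brightest probe stood for a gene. The script was tested on simulated data. Groups came from the sample labels. The replicate numbers, which the labels give, were not used to pair the samples in the main fit. Same-numbered deviations had r = 0.314 (Derlin-1) and -0.0647 (Derlin-2), which does not settle whether the samples are paired. P-values measure the spread between these samples, which may be technical. Array number limits the precision: 2 a group. Normexp (offset 50) used median spot signals, since the mean signal was not used here.

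Named members are the catalytic and immunoproteasome genes, the 3 largest differences each way in each line among members well above background on its 4 arrays, the 3 largest each way between lines, any called member and, of each pathway list, the highest and lowest. Members and lists were chosen with earlier results of these data known. Promoter windows, coordinates and current symbols came from RefSeq (GRCm38.p6), and the array design's own coordinates were not used. Alternatives were 75th percentile scaling, normexp, the deposited log2 values, other filters, the mean of a gene's probes, leaving out the last eighth of array rows, fits on 1 line, a replicate block and leaving out each array.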

Additional observations from a re-analysis of the deposited data

Results flagged for a closer look

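For Psmb2 and Psma6 both KO arrays lay below the controls in 1 line and above them in the other. These were 2 of 39 members (5.13%), where 5.58% of all genes did so, and Psmb2 qualified for Derlin-2 only by 11.4864 against 11.4868 in the lower control. For Psmb2 the Derlin-1 difference minus the Derlin-2 difference was 0.52 on the log2 scale, with an adjusted p of 0.844 in limma, and it came from the brightest of 3 probes. For Psma6 the same quantity was -0.12, with an adjusted p of 0.948 in limma. Neither difference passed the threshold.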

How the results depend on the processing

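No member was called in either line under the 17 alternatives, or in the difference under the 15 that could give it, and of 350 values of named members under them 330 kept their direction. Many of the 350 could not turn: the other filters, the cut of the last array rows, the fits on 1 line and the replicate block leave these differences unchanged by construction. With 2 arrays a group, only large differences could be called, and dim genes (Psmb8, Psmb9, Psma8, Psmb11) were the least precise. The replicate block left the count of called members at 0 in each line and 0 in the difference, and took the probes called from 18 to 0 (Derlin-2) and from 3 to 0 (difference). Over all alternatives the probes called ran from 0 to 1 (Derlin-1), 0 to 54 (Derlin-2) and 0 to 20 (difference). The cause of the changes below was not tested, except that a count of non-overlapping groups grows by construction when an array is left out.

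Under 75th percentile scaling the core median was -0.039 in the Derlin-1 line and 0.049 for Derlin-2 and the Derlin-2 cap median 0.040; for Derlin-2, 3 members lay below and 14 above the controls (all genes 13.7% and 20.8%), and 9 of 34 core and cap genes were lower. In the deposited log2 values the Derlin-2 core median was 0.050 and the cap median 0.041, with 2 members below, 14 above (all genes 13.4% and 20.9%) and 8 of 34 lower. With the mean of a gene's probes the Derlin-1 core median was -0.041. There, 5 members (Derlin-1, all genes 16.8%) and 1 (Derlin-2, all genes 18.6%) lay above. Signs turned for Psmb5 (0.015, deposited 0.017) and Psmb6 (0.045, deposited 0.047) for Derlin-2 under 75th percentile scaling and the deposited values, for Psmb10 for Derlin-2 under normexp (-0.0020), and with the mean of probes for Psmd2 in the Derlin-1 line (-0.069) and between lines (-0.077) and for Psmc4 between lines (-0.12).

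Leaving out 1 array at a time, the Derlin-1 medians ran from -0.055 to -0.032 (core), -0.11 to -0.0017 (cap) and -0.29 to -0.035 (immunoproteasome), with 18 to 29 of 39 members below and 4 to 10 above. Over all genes, 29.9% to 43.3% then lay below and 27.1% to 39.6% above. The Derlin-2 medians ran from -0.015 to 0.022 (core), -0.032 to 0.034 (cap) and -0.60 to -0.00056 (immunoproteasome), with 9 to 15 members below and 5 to 15 above. For all genes of that line the shares were 22.6% to 37.1% below and 31.8% to 42% above. Signs turned within these ranges for Psmb5 (-0.12 to 0.018) and Psmb7 (-0.038 to 0.0032) in the Derlin-1 line, and for Derlin-2 for Psmb5 (-0.12 to 0.084), Psmb6 (-0.057 to 0.023), Psmb8 (-0.60 to 0.33), Psmb10 (-0.056 to 0.093), Psmd5 (-0.048 to 0.20) and Psmd8 (-0.065 to 0.22).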
